A study of Homo sapiens with 6 samples.

Results

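The genes described here are those carried by the mitochondrial genome, taken as every row of the co-culture expression table whose gene name starts with MT-. There were 25 of them among 21519 genes: 13 mRNAs, 2 rRNAs and 10 of the 22 mitochondrial tRNAs annotated by RefSeq. The remaining 12 tRNAs were not analysed here. The table compares a pair of RNA-seq libraries of DLD1, an established colorectal cancer cell line labelled WT, each from 1 sample. S-CAFs-w13 was made from DLD1 cells grown with the fibroblasts that the labels call S-CAFs, which the series title describes as senescent. DLD1-W13CM was read as the culture with CAFs (cancer-associated fibroblasts) by elimination, since its title names no co-culture partner and the letters CM are not explained. Neither title says what w13 stands for, and whatever else differed between these cultures cannot be separated from the type of fibroblast. The 4 other libraries of the series belong to a METTL1 knockdown experiment whose table held 0 rows for genes of the mitochondrial genome.

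Human mitochondrial DNA is a small circle that is transcribed almost in full on both strands, from promoters in its only long noncoding stretch, the control region. The heavy-strand transcript carries both rRNAs, 12 of the mRNAs and most tRNAs, and the light-strand transcript carries MT-ND6 and 8 tRNAs. Enzymes cut the tRNAs out of these long precursors, which frees the mRNAs and rRNAs between them, and most of the mRNAs then receive a short poly(A) tail. All 13 mRNAs encode subunits of the respiratory chain or of ATP synthase, in which they join subunits made from nuclear genes. Because the genes of a strand start out on a common precursor, differences between their steady-state levels are usually ascribed to processing and decay as well as to transcription.

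Levels are the authors' FPKM, fragments scaled to gene length and to an effective library size. Multiplied by the RefSeq gene length, the FPKM of all 25 genes were whole multiples of the value of a single MT-TV read, to within 0.001 reads, so the reads behind each value could be counted. This gave effective library sizes of 6215547 for S-CAFs-w13 and 6337932 for DLD1-W13CM. These sizes may not be plain read totals. The smallest whole reads that the FPKM allow were summed over the 20743 genes for which they were recovered. They came to 5806986 in S-CAFs-w13 and 5424915 in DLD1-W13CM, the opposite order. Both sums are lower bounds, so their order cannot settle what the sizes are. Intervals in parentheses are exact (Clopper-Pearson) 95% counting intervals of the FPKM ratio. With 1 library per group they cover counting error only, there is no replicate check, and a ratio describes these libraries and not the conditions.

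Mitochondrial mRNAs stood lower in S-CAFs-w13, while the rRNAs were level. Of the 13 mRNAs, all had a lower FPKM in S-CAFs-w13, and 11 were at least 2-fold lower on the log2(FPKM + 1) scale, against 7.92% of the 14739 genes that averaged 1 FPKM or more. None was at least 2-fold higher, against 9.08% of those genes. The median log2 ratio of the mRNAs was -1.39, against 0.02 for all genes tested. Summed over the 13 mRNAs, the level was 27838 FPKM in S-CAFs-w13 and 71011 FPKM in DLD1-W13CM, 2.55-fold lower. The 2 rRNAs summed to 103002 FPKM in S-CAFs-w13 and 101086 FPKM in DLD1-W13CM. The mRNA sum was thus 27.0% of the rRNA sum in S-CAFs-w13 and 70.2% in DLD1-W13CM, a ratio that no scaling of the libraries can alter. A difference between the libraries in how RNAs were selected could alter it, and was not tested. In bulk RNA, fewer cells of a type and less RNA per cell cannot be told apart.

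**Figure D1:**
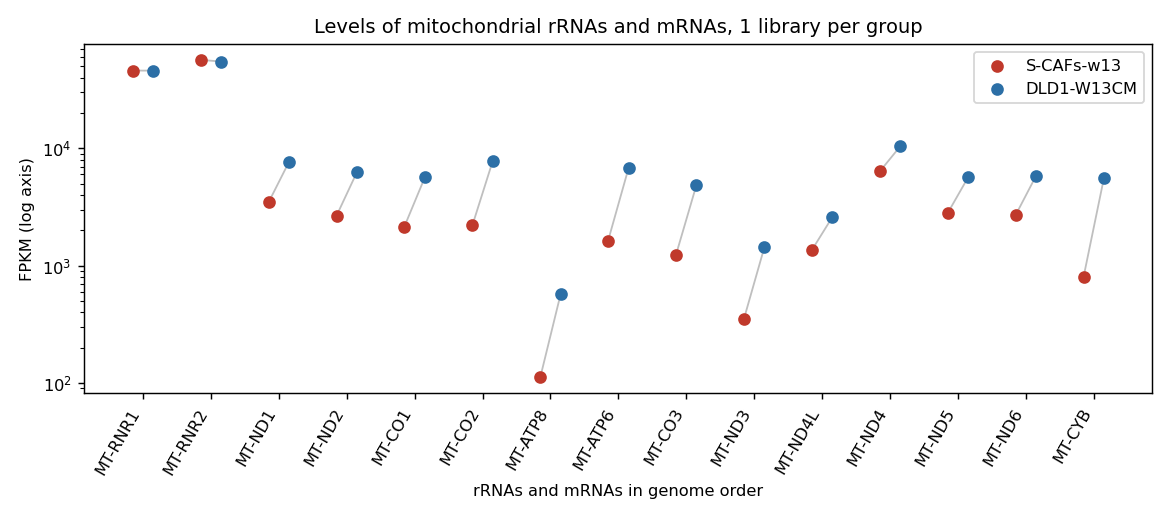
FPKM on a log axis of the 2 rRNAs and 13 mRNAs in genome order, with S-CAFs-w13 in red on the left and DLD1-W13CM in blue on the right of each pair; each point is a single library and grey lines join the pair. The rRNAs sit level, between 46047.5 and 56893 FPKM, and every mRNA is lower in S-CAFs-w13, with the steepest line at MT-CYB.

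The rRNAs form the core of the mitochondrial ribosome. MT-RNR1, the small-subunit rRNA (chromosome MT, 648 to 1601), stood at 46108 FPKM in S-CAFs-w13 and 46047.5 FPKM in DLD1-W13CM, from 273406 and 278421 reads. MT-RNR2, the large-subunit rRNA (1671 to 3229), stood at 56893 FPKM in S-CAFs-w13 and 55039 FPKM in DLD1-W13CM, a ratio of 1.03 (1.03 to 1.04). Whether the rRNAs are read as level or slightly lower depends on the scaling: their summed ratio was 1.02 as deposited, 0.922 on the scaling of the authors' log2 fold changes and 0.872 when both libraries were set to equal summed FPKM without the mitochondrial genes. The authors' deposited table gave log2 fold changes of -0.14 for MT-RNR1 and -0.10 for MT-RNR2, with adjusted p-values of 6.14e-302 and 1.45e-286. Those p-values rest on a single library of each kind and very many reads, and cannot cover variation between cultures.

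Complex I, the NADH dehydrogenase that feeds electrons into the chain, has 7 mitochondrially encoded subunits. Their mRNAs summed to 19696 FPKM in S-CAFs-w13 and 39799 FPKM in DLD1-W13CM, 2.02-fold lower. MT-ND4 (10760 to 12137) was the most abundant mRNA in both libraries and the least lowered, at 6357 FPKM in S-CAFs-w13 and 10399 FPKM in DLD1-W13CM, 1.64-fold lower (1.62 to 1.65). MT-ND4L, whose reading frame overlaps that of MT-ND4 by 7 bases, stood at 1358 FPKM in S-CAFs-w13 and 2585 FPKM in DLD1-W13CM, 1.90-fold lower (1.81 to 1.999). These were the only mRNAs short of 2-fold, and MT-ND4L passed it on the scaling of the authors' log2 fold changes.

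MT-ND5, next along the heavy-strand transcript (12337 to 14148), was at 2806 FPKM in S-CAFs-w13 and 5654 FPKM in DLD1-W13CM, 2.02-fold lower, with an interval of 1.99 to 2.04 that includes 2-fold. MT-ND1 (3307 to 4262) was at 3468 FPKM in S-CAFs-w13 and 7658 FPKM in DLD1-W13CM, 2.21-fold lower (2.17 to 2.24). MT-ND2 (4470 to 5511) was 2.35-fold lower (2.31 to 2.39), at 2661 FPKM in S-CAFs-w13 and 6253 FPKM in DLD1-W13CM. These first 2 mRNAs after the rRNAs thus moved by similar factors, with intervals that do not overlap.

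MT-ND3 (10059 to 10404) stood apart from the other complex I mRNAs, at 352 FPKM in S-CAFs-w13 and 1432 FPKM in DLD1-W13CM, 4.07-fold lower (3.76 to 4.41). Its factor lay with that of its upstream neighbour MT-CO3, and its level was 28.3% of that of MT-CO3 in S-CAFs-w13 and 29.4% in DLD1-W13CM. MT-ND6 (14149 to 14673), the only mRNA of the light-strand transcript, is known to lack a poly(A) tail in human cells. It stood at 2695 FPKM in S-CAFs-w13 and 5818 FPKM in DLD1-W13CM, 2.16-fold lower (2.105 to 2.21), close to MT-ND5 in level and in factor. The sources used here do not say whether the counting used strand, and without it reads of MT-ND6 and of the heavy-strand transcript across the same bases cannot be told apart.

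Complex III has a single mitochondrial subunit, cytochrome b, encoded by MT-CYB (14747 to 15887). It was the most lowered of the mRNAs, at 797 FPKM in S-CAFs-w13 and 5561 FPKM in DLD1-W13CM, 6.97-fold lower (6.78 to 7.17), from 5655 and 40212 reads. In DLD1-W13CM its level was 98.3% of that of MT-ND5, and in S-CAFs-w13 it was 28.4%. Only 12 genes of the whole table had a higher FPKM than MT-CYB in DLD1-W13CM, while 29 did in S-CAFs-w13.

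Complex IV, cytochrome c oxidase, passes the electrons to oxygen, and its catalytic core is made of the 3 mitochondrial subunits. All 3 mRNAs were at least 2-fold lower. MT-CO1 (5904 to 7445) was at 2155 FPKM in S-CAFs-w13 and 5649.9 FPKM in DLD1-W13CM, 2.62-fold lower (2.58 to 2.66). MT-CO2 (7586 to 8269) was at 2199 FPKM in S-CAFs-w13 and 7792 FPKM in DLD1-W13CM, 3.54-fold lower (3.46 to 3.63). MT-CO3 (9207 to 9990) was at 1242 FPKM in S-CAFs-w13 and 4869 FPKM in DLD1-W13CM, 3.92-fold lower (3.81 to 4.03). The factor thus differed between these mRNAs of a single complex beyond counting error, in the order of their place on the genome.

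ATP synthase, or complex V, has 2 mitochondrial subunits, MT-ATP8 (8366 to 8572) and MT-ATP6 (8527 to 9207), read from a shared mRNA on which their frames overlap by 46 bases. MT-ATP6 was at 1637 FPKM in S-CAFs-w13 and 6770.4 FPKM in DLD1-W13CM, 4.14-fold lower (4.03 to 4.25). MT-ATP8 was at 111 FPKM in S-CAFs-w13 and 570.1 FPKM in DLD1-W13CM, 5.13-fold lower (4.28 to 6.18), from 143 and 748 reads. Although they share an mRNA, the level listed for MT-ATP8 was 6.79% of that of MT-ATP6 in S-CAFs-w13 and 8.42% in DLD1-W13CM. MT-ND4L likewise stood at 21.4% of MT-ND4 in S-CAFs-w13 and 24.9% in DLD1-W13CM. The submitters' notes name featureCounts, which by default leaves out a read that touches more than a single gene; the sources used here do not give its settings, so the levels of these short, overlapping genes are uncertain.

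Along the heavy-strand transcript the factors neither rose nor fell throughout, and neighbouring genes are grouped here by these same factors. MT-ND1 and MT-ND2 were 2.21-fold and 2.35-fold lower and MT-CO1 was 2.62-fold lower. The 5 genes MT-CO2, MT-ATP8, MT-ATP6, MT-CO3 and MT-ND3 were 3.54-fold to 5.13-fold lower. The 3 genes that follow, MT-ND4L, MT-ND4 and MT-ND5, were 1.64-fold to 2.02-fold lower, and MT-CYB at the far end was 6.97-fold lower. Over the 12 heavy-strand mRNAs, Spearman's rho between genome order and log2 ratio was -0.01, and over all 13 mRNAs that between length and log2 ratio was 0.28; the points share the same libraries, and both are descriptions without a test.

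**Figure D2:**
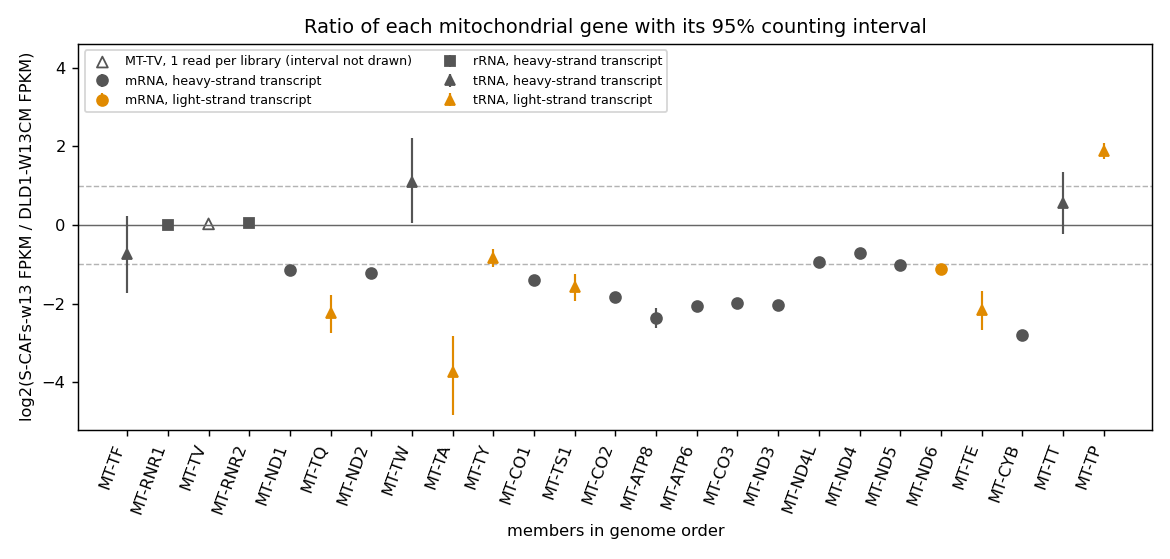
Log2 ratio of FPKM, S-CAFs-w13 over DLD1-W13CM, for the 25 genes in genome order, with 95% counting intervals (not drawn for MT-TV, which had 1 read in each library); circles are mRNAs, squares rRNAs and triangles tRNAs, grey for the heavy-strand and orange for the light-strand transcript, and dashed lines mark 2-fold. The mRNAs run from -0.71 at MT-ND4 to -2.80 at MT-CYB, the rRNAs lie at 0.002 and 0.05, and MT-TP stands highest at 1.87.

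The makeup of the mRNA pool shifted with these factors. MT-ND4 gave 29.5% of the reads of the 13 mRNAs in S-CAFs-w13 and 19.997% in DLD1-W13CM. MT-ND5 gave 17.1% in S-CAFs-w13 and 14.3% in DLD1-W13CM. MT-CYB gave 3.06% in S-CAFs-w13 and 8.85% in DLD1-W13CM, and MT-CO2 gave 5.06% and 7.44%, in the same order of libraries. The order of the 13 levels was otherwise largely kept, with a Spearman's rho of 0.83 between the libraries. All 25 genes together took 1010860 reads in S-CAFs-w13 and 1278084 reads in DLD1-W13CM. That was 16.3% of the effective library size in S-CAFs-w13 and 20.2% in DLD1-W13CM. Their counting intervals, 16.2 to 16.3 and 20.1 to 20.2, treat the effective sizes as read totals, which they may not be. Of the summed smallest reads the 25 genes took 17.4% in S-CAFs-w13 and 23.6% in DLD1-W13CM. The mRNAs alone were 2.97% and 7.17% of the effective sizes, in the same order.

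The tRNAs went in both directions. Transfer RNAs are shorter than the fragments that most RNA-seq libraries retain, and whether the reads counted here came from mature tRNAs or from longer precursors was not tested. Of the 8 tRNAs of the light-strand transcript 6 were in the table, at 23.3 to 2110.5 FPKM in S-CAFs-w13 and 311 to 1109 FPKM in DLD1-W13CM. Of the 14 tRNAs of the heavy-strand transcript 4 were in the table, at 2.33 to 87.8 FPKM in S-CAFs-w13 and 2.29 to 60.001 FPKM in DLD1-W13CM. Of all 10, 4 were at least 2-fold lower and 2 at least 2-fold higher on the log2(FPKM + 1) scale, against 7.92% lower and 9.08% higher among all genes tested.

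MT-TP, the tRNA for proline (15956 to 16023), lies at the edge of the control region and is the first gene that the light-strand transcript reaches. It was the most raised member, at 2110.5 FPKM in S-CAFs-w13 and 578 FPKM in DLD1-W13CM, 3.65-fold higher (3.17 to 4.22), from 892 and 249 reads. In the authors' deposited table its log2 fold change was 1.73, with an adjusted p of 1.9e-73 that again rests on single libraries. The other 5 light-strand tRNAs were all lower. MT-TE, for glutamate, which follows MT-TP on that strand, stood at 100.3 FPKM in S-CAFs-w13 and 448 FPKM in DLD1-W13CM, 4.47-fold lower (3.20 to 6.37).

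Farther along the light strand, MT-TS1, a tRNA for serine, was 2.9998-fold lower (2.39 to 3.79), at 238 FPKM in S-CAFs-w13 and 713 FPKM in DLD1-W13CM. MT-TY, for tyrosine, was 1.78-fold lower (1.53 to 2.09), at 622 FPKM in S-CAFs-w13 and 1109 FPKM in DLD1-W13CM. MT-TA, for alanine, was at 23.3 FPKM in S-CAFs-w13 and 311 FPKM in DLD1-W13CM, 13.3-fold lower (7.03 to 28.4), from 10 and 136 reads. MT-TQ, for glutamine, was 4.75-fold lower (3.43 to 6.70), from 45 reads in S-CAFs-w13 and 218 in DLD1-W13CM. The factors of these tRNAs did not follow their order on the strand.

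The heavy-strand tRNAs rested on few reads. MT-TF, for phenylalanine and the first gene after the control region (577 to 647), had 16 reads in S-CAFs-w13 and 27 in DLD1-W13CM, at 36.3 and 60.001 FPKM. The interval of its ratio of 0.604, from 0.304 to 1.16, includes no difference. MT-TT, for threonine, which lies beside MT-TP on the opposite strand, was at 87.8 FPKM in S-CAFs-w13 and 59.8 FPKM in DLD1-W13CM, a ratio of 1.47 (0.857 to 2.55). MT-TW, for tryptophan, stood at 59.1 FPKM in S-CAFs-w13 and 27.8 FPKM in DLD1-W13CM, 2.12-fold higher (1.03 to 4.64), from 25 and 12 reads, and was no longer past 2-fold on the scaling of the authors' log2 fold changes. MT-TV, for valine, sits with no gap between the rRNAs and had 1 read in each library. If reads touching a second gene were left out, closely flanked tRNAs would lose reads. All 4 heavy-strand tRNAs lie 0 bases from a gene of their strand, as does MT-TE on the light strand. MT-TA and MT-TY lie within 1 base of theirs, and MT-TQ, MT-TS1 and MT-TP at least 1186 bases away. The part of such counting in the difference between strands was not tested.

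**Figure D3:**
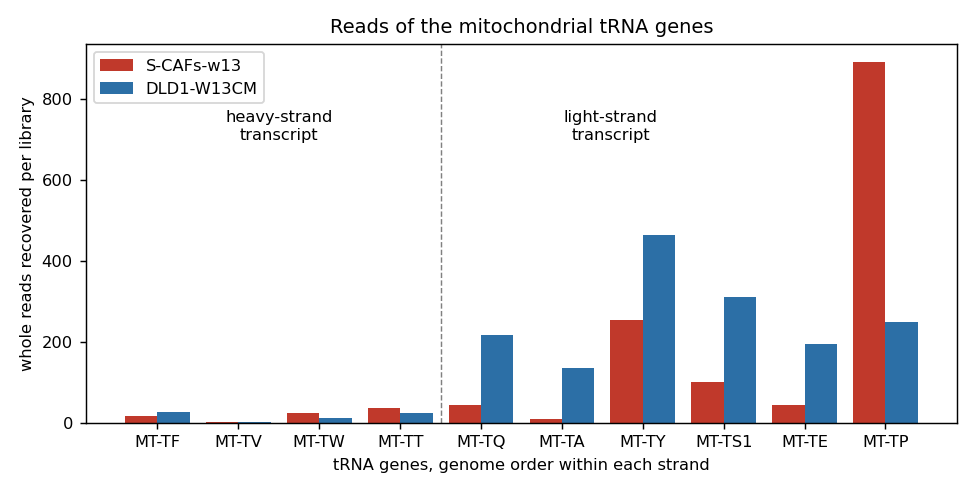
Whole reads recovered for the 10 tRNA genes in the table, S-CAFs-w13 in red and DLD1-W13CM in blue, with the 4 genes of the heavy-strand transcript left of the dashed line and the 6 of the light-strand transcript right of it. Heavy-strand tRNAs have 1 to 36 reads; among light-strand tRNAs MT-TP alone has more reads in S-CAFs-w13, 892 against 249.

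Copies of mitochondrial genes that lie in the nuclear genome share sequence with the members, and reads can be split between them in counting. The table held 51 such copies, of which 30 averaged 1 FPKM or more; 8 of these (26.7%) were lower and 3 (10.0%) higher by 2-fold or more, against 7.92% and 9.08% of all genes tested. By their smallest whole reads, 4 of the lower and all 3 of the higher calls had at most 10 in a library. The 4 that averaged 10 FPKM or more are set beside their mitochondrial counterparts. MTATP6P1 was at 399 FPKM in S-CAFs-w13 and 1578 FPKM in DLD1-W13CM, 3.96-fold lower (3.75 to 4.18), beside 4.14-fold for MT-ATP6. MTND2P28 was at 105 FPKM in S-CAFs-w13 and 249 FPKM in DLD1-W13CM, 2.38-fold lower (2.17 to 2.61), beside 2.35-fold for MT-ND2. MTCO1P12 was 2.83-fold lower (2.06 to 3.95), beside 2.62-fold for MT-CO1. MTRNR2L12, a copy from MT-RNR2, was at 32.2 FPKM in S-CAFs-w13 and 21.8 FPKM in DLD1-W13CM, a ratio of 1.48 (1.19 to 1.84), above the 1.03 (1.03 to 1.04) of MT-RNR2. Reads of these copies cannot be told apart from reads of the mitochondrial genes in these files.

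The nuclear genes that build and serve mitochondria stayed nearer to level. The subunits that join the mitochondrial ones in complexes I, III, IV and V had 0 of 70 measured genes at least 2-fold lower and 0 at least 2-fold higher, with a median log2 ratio of -0.07, against 7.92% lower and 9.08% higher among all genes tested. On the scaling of the authors' log2 fold changes 1 of the 70 was 2-fold lower, NDUFB11 of complex I, at 9.42 FPKM in S-CAFs-w13 and 19.0 FPKM in DLD1-W13CM. NDUFB11 was 2.02-fold lower (1.55 to 2.66) by the plain ratio of the deposited FPKM. The pseudocount holds low genes back: by the plain FPKM ratio NDUFC2, also of complex I, was 2.87-fold lower (1.49 to 5.86), from 13 and 38 reads, and UQCR11 of complex III was 2.16-fold lower (0.691 to 7.92), from 5 and 11 reads. These 3 genes are named after their values were seen. By complex the medians were 0.04 for 34 subunits of complex I, -0.07 for 9 of complex III, -0.01 for 12 of complex IV and -0.21 for 15 of complex V. The subunits of complex II, which is wholly nuclear, had a median of 0.27 over 4 genes. Among 23 genes of the outer membrane, import and matrix the median was -0.11, and IDH2, the matrix isocitrate dehydrogenase, alone passed 2-fold, at 21.2 FPKM in S-CAFs-w13 and 9.92 FPKM in DLD1-W13CM, 2.14-fold higher (1.78 to 2.57). Of 13 mitochondrial chaperones and proteases none passed 2-fold, with a median of 0.01.

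Genes for mitochondrial transcription, RNA processing, DNA replication, biogenesis, import, protein quality, mitophagy and translation made up 8 lists, with 130 measured genes and a median of -0.11. Of these, 10 were at least 2-fold lower (7.69%, against 7.92% of all genes tested). At least 2-fold higher were 2 (1.54%, against 9.08%). The share lowered was near that of all genes and the share raised was below it. Both genes that were higher, IDH2 and BNIP3L, a receptor for mitophagy, were within 2-fold on the scaling of the authors' log2 fold changes. BNIP3L was at 33.7 FPKM in S-CAFs-w13 and 15.3 FPKM in DLD1-W13CM, 2.20-fold higher (1.95 to 2.47). The mitophagy list of 11 genes had a median of 0.30 and the biogenesis regulators a median of -0.07 over 9 genes.

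**Figure D4:**
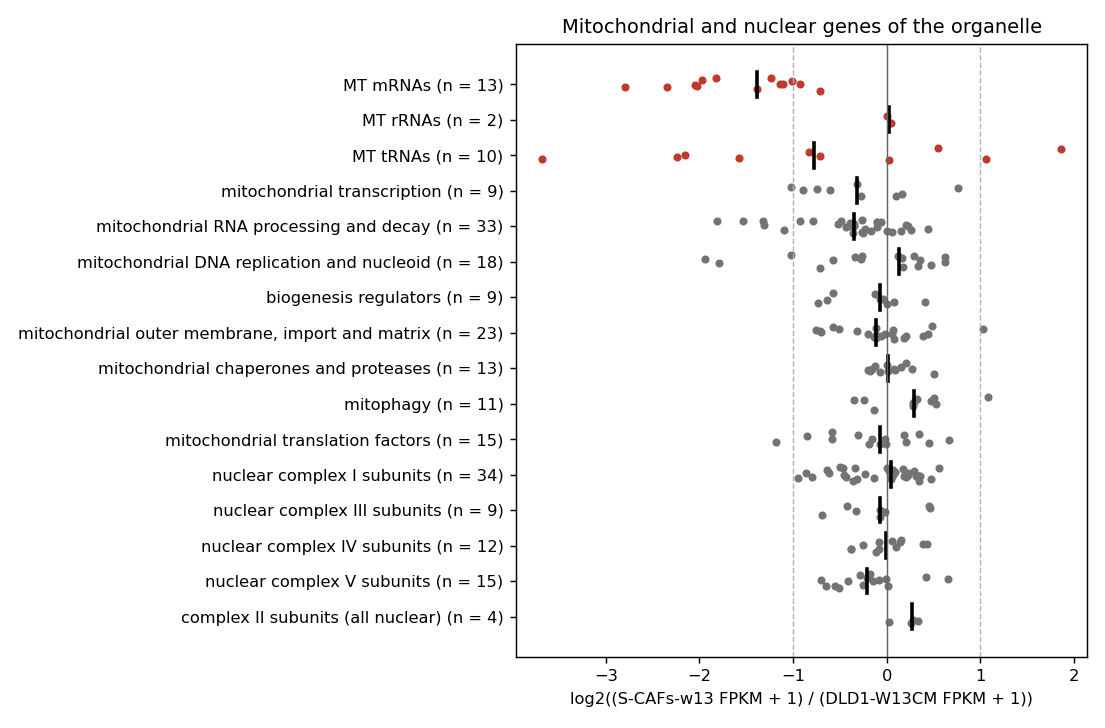
Log2((FPKM + 1)/(FPKM + 1)), S-CAFs-w13 over DLD1-W13CM, of the mitochondrial mRNAs, rRNAs and tRNAs (red) and of nuclear genes by list (grey), for genes averaging 1 FPKM or more; each point is a gene, black bars are medians and dashed lines mark 2-fold. The mitochondrial mRNAs have a median of -1.39, while the list medians of nuclear genes lie between -0.35 and 0.30.

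In the transcription list, 1 of 9 genes was at least 2-fold lower (11.1%, against 7.92% of all genes tested). In that list 0 were higher (against 9.08%) and the median was -0.31. POLRMT, the mitochondrial RNA polymerase, was at 10.1 FPKM in S-CAFs-w13 and 5.54 FPKM in DLD1-W13CM, a ratio of 1.82 (1.31 to 2.54). TFAM, which packages mitochondrial DNA and opens its promoters, was at 6.08 FPKM in S-CAFs-w13 and 12.1 FPKM in DLD1-W13CM, 1.99-fold lower (1.69 to 2.36), short of 2-fold as deposited and past it on the scaling of the authors' log2 fold changes. TFB2M, the initiation factor, stood at 16.0 FPKM in S-CAFs-w13 and 14.2 FPKM in DLD1-W13CM. TEFM, the elongation factor, stood at 2.30 FPKM in S-CAFs-w13 and 2.99 FPKM in DLD1-W13CM. The gene past 2-fold as deposited was MTRES1, a mitochondrial RNA-binding protein, at 2.13 FPKM in S-CAFs-w13 and 5.35 FPKM in DLD1-W13CM. The termination factor MTERF1 was not analysed here.

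Of 33 genes of mitochondrial RNA processing and decay, 5 were at least 2-fold lower and 0 higher, with a median of -0.35. That was 15.2% lower, against 7.92% of all genes tested, and none higher, against 9.08%. TRMT10C and HSD17B10 belong to the mitochondrial RNase P that cuts tRNAs at their 5' ends. TRMT10C was at 7.07 FPKM in S-CAFs-w13 and 19.1 FPKM in DLD1-W13CM, 2.69-fold lower (2.09 to 3.51), and HSD17B10 was 2.20-fold lower (1.77 to 2.74). PRORP, the nuclease of that enzyme, and ELAC2, which cuts the 3' ends, are named after their values were seen. PRORP was at 0.783 FPKM in S-CAFs-w13 and 1.15 FPKM in DLD1-W13CM and ELAC2 at 11.8 FPKM in S-CAFs-w13 and 17.1 FPKM in DLD1-W13CM.

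Also in that list, PUS1, named after its value was seen, was 2.55-fold lower (1.59 to 4.22) by the plain FPKM ratio. On the log2(FPKM + 1) scale it was short of 2-fold as deposited and past it on the scaling of the authors' log2 fold changes. Apart from TRMT10C and HSD17B10, the genes of that list past 2-fold as deposited act on ribosomal RNA. MRM2, which methylates the large rRNA, was at 3.17 FPKM in S-CAFs-w13 and 13.7 FPKM in DLD1-W13CM, 4.31-fold lower (3.21 to 5.87). The helicase DDX28, needed for the large ribosomal subunit, was 3.79-fold lower (2.499 to 5.91). MRM1, another rRNA methyltransferase, was at 0.520 FPKM in S-CAFs-w13 and 2.80 FPKM in DLD1-W13CM. The smallest whole reads those values allow are 2 and 11, and true reads may be whole multiples. On the smallest reads its interval was wide, 1.18-fold to 50.1-fold lower.

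Of the factors that act on mitochondrial mRNA stability, 5 were described whatever their value. LRPPRC, whose complex with SLIRP protects the mRNAs, was at 49.7 FPKM in S-CAFs-w13 and 43.0 FPKM in DLD1-W13CM, and SLIRP at 8.99 FPKM in S-CAFs-w13 and 10.97 FPKM in DLD1-W13CM. MTPAP, the poly(A) polymerase, was at 4.36 FPKM in S-CAFs-w13 and 5.89 FPKM in DLD1-W13CM, 1.35-fold lower (1.14 to 1.61). PNPT1 and SUPV3L1, nuclease and helicase of the degrading complex, were at 13.5 and 9.20 FPKM in S-CAFs-w13 and at 18.0 and 9.95 FPKM in DLD1-W13CM.

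Of 18 genes for mitochondrial DNA replication and the nucleoid, 3 were at least 2-fold lower and 0 higher, with a median of 0.13. That was 16.7% lower, against 7.92% of all genes tested, and none higher, against 9.08%. PRIMPOL, a primase-polymerase, was at 1.08 FPKM in S-CAFs-w13 and 6.94 FPKM in DLD1-W13CM, 6.45-fold lower (3.96 to 11.1). MGME1, a nuclease of mitochondrial DNA maintenance, was at 3.65 FPKM in S-CAFs-w13 and 15.1 FPKM in DLD1-W13CM, 4.13-fold lower (3.05 to 5.68). TWNK, the replicative helicase, was 2.28-fold lower (1.77 to 2.97), and POLG, the catalytic subunit of the DNA polymerase, stood at 11.9 FPKM in S-CAFs-w13 and 9.13 FPKM in DLD1-W13CM. Of 15 translation factors 1 was at least 2-fold lower (6.67%, against 7.92% of all genes tested). It was TACO1, the activator of MT-CO1 translation, at 3.82 FPKM in S-CAFs-w13 and 9.95 FPKM in DLD1-W13CM.

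Other measures of these libraries are given here, some of which also differed, and their part in the result was not tested. Of 8 RNAs that are kept in the nucleus or lack a long poly(A) tail, 3 were measured. All 3 (100%, against 9.08% of all genes tested) were at least 2-fold higher in S-CAFs-w13. Their sum was 8024 FPKM in S-CAFs-w13 and 2284 FPKM in DLD1-W13CM. They were MALAT1 (5.13-fold), NEAT1 (11.9-fold) and RN7SL2 (2.06-fold, and within 2-fold on the scaling of the authors' log2 fold changes). Of 13 epithelial markers 12 were measured, summing to 3335 FPKM in S-CAFs-w13 and 2161 FPKM in DLD1-W13CM. KRT19, CEACAM5 and CLDN4 among them were at least 2-fold higher (25.0% of the 12, against 9.08% of all genes tested), and the intestinal transcription factor CDX2 was 2.78-fold lower (8.33%, against 7.92%). Of 19 fibroblast markers 11 were in the table, summing to 13.9 FPKM in S-CAFs-w13 and 11.3 FPKM in DLD1-W13CM. That sum holds moves in both directions: of the 3 that averaged 1 FPKM or more, 2 were lower and 1 higher in S-CAFs-w13. Named after their values were seen, FN1 was 1.82-fold lower (1.52 to 2.19), while PDGFRB had at least 25 reads in S-CAFs-w13 and at least 1 in DLD1-W13CM. None of the 11 was at 0, and 8 were below 1 FPKM in both libraries. The highest was S100A4 at 7.53 FPKM in S-CAFs-w13 and 4.77 FPKM in DLD1-W13CM, with COL1A1 at 0.229 and 0.0482 FPKM in the same order. EPCAM, an epithelial marker, stood at 149 FPKM in S-CAFs-w13 and 154 FPKM in DLD1-W13CM.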

How the data were processed

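Per the labels' protocols, both libraries were prepared from total RNA (TRIzol) by a TruSeq RNA kit of Illumina. Tools listed in the submitters' processing notes include HISAT2 2.1.0, featureCounts 1.6.3, cutadapt 2.5 and DESeq2; of the builds listed, GRCh38, hg38 and GRCm38, no role is given, and the sources used here state neither settings nor strand. The values deposited by the authors are FPKM, with their own log2 fold changes, p-values and adjusted p-values per the file headers. For the 20806 genes above 0 in both libraries, the deposited log2 fold change lies -0.14 from the log2 ratio of the deposited FPKM. Effective library sizes and whole reads of the members were solved from FPKM and RefSeq lengths and coordinates (GRCh38.p14, 25 of 25 members matched), with the smallest possible number of MT-TV reads, 1, as the unit; true reads may be whole multiples, so intervals are at their widest. For other genes the smallest whole reads that leave a whole gene length were used. The recovery was tested on simulated data in which the scarcest gene was given 1 read in each library. That test therefore cannot check the unit of 1 read. Ratios used FPKM as deposited; 2-fold counts used log2(FPKM + 1), which understates low genes, at a mean of at least 1 FPKM.

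All mRNAs and rRNAs were named, tRNAs where a library reached 10 FPKM (MT-TV is named after its value was seen), nuclear copies at a mean of 10 FPKM, and from each list the genes past 2-fold, at most 5, with a fixed set of core factors. Strands and roles are textbook knowledge. The members and lists were chosen with earlier results of these data known. Computations used Python 3.11.15, numpy 2.4.6, scipy 1.17.1 and pandas 2.3.3. No sequence is printed.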

Additional observations from a re-analysis of the deposited data

How the results depend on the processing

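Counts of lowered members changed little: 11 to 12 mRNAs and 4 to 5 tRNAs were at least 2-fold lower under every pseudocount, filter and scaling tried, and the counting interval excluded 2-fold for 10 mRNAs. All 13 mRNAs stayed below 0 under the 6 scalings. Scalings by the summed smallest reads, the share of those reads and the interval criterion were added after the data were seen. The scalings shifted the log2 ratio of every gene by -0.14 (authors'), -0.22 (equal summed FPKM without mitochondrial genes), -0.03 (median ratio), -0.13 (summed smallest reads) and -0.24 (those without mitochondrial genes). The share of higher genes among all 2-fold genes was 53.4% as deposited and 42.2%, 36.1%, 51.5%, 43.7% and 35.1% in that order. Of all genes tested, 7.92% were at least 2-fold lower as deposited and 9.81%, 11.1%, 8.22%, 9.54% and 11.3% in that order. At least 2-fold higher were 9.08% as deposited and 7.17%, 6.26%, 8.72%, 7.40% and 6.09%. The tRNAs at least 2-fold higher, 2 as deposited, were 2 under the median ratio and 1 under the other scalings. The summed mRNA ratio of 0.392 became 0.355, 0.336, 0.384, 0.359 and 0.332, and 0.415 when reads were summed. The summed rRNA ratio of 1.02 became 0.922, 0.872, 0.999, 0.934 and 0.864, and 1.02 for reads. The mRNA to rRNA ratio of S-CAFs-w13 over that of DLD1-W13CM, 0.385, became 0.392 with MT-RNR1 alone, 0.379 with MT-RNR2 alone, 0.356 without the overlapping frames, 0.378 without MT-ND6, 0.405 without MT-CYB and 0.374 with medians. The mitochondrial share became 15.8% in S-CAFs-w13 and 19.1% in DLD1-W13CM with the smallest lengths the FPKM allow, 2.99% and 7.19% without the rRNAs, and 17.4% and 23.6% of the summed smallest reads. Pathway genes at least 2-fold higher, 2 as deposited, were 1 under the median ratio and 0 under the other scalings and by the counting interval. Lower ones, 10 as deposited, were 10 to 13 under the scalings. They were 13 with a pseudocount of 0.1 FPKM and 7 at a mean of at least 5 FPKM. The counting interval left 5 of those 10. Nuclear subunits of complexes I, III, IV and V at least 2-fold lower, 0 of 70 as deposited, were 0 to 3 under the scalings. The shifts follow from each scaling's construction. No paired analysis was possible because each group held 1 library, and no library could be left out.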
